A study of Mus musculus with 12 samples.

Results

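The effect of adding CD28 costimulation to T cell receptor stimulation was read from 6 of 12 RNA sequencing libraries, 3 of the group CD3 and 3 of the group CD3_CD28. The genes compared were the 9826 of 17203 listed genes that reached 10 CPM (reads per 1000000 assigned reads) in at least 3 of the 12 libraries. All libraries came from primary CD4+ T cells of C57BL/6 mice. CD3 cells lay for 72 h on plate-bound anti-CD3, and CD3_CD28 cells lay for 72 h on plate-bound anti-CD3 with soluble anti-CD28 added. The other libraries, 3 a group, entered the choice of tested genes, the estimate of the spread and the rescalings given below. They were from Unstimulated cells, taken fresh with no activation, and CD3_CD28_ICOS cells, given 3 soluble antibodies for 72 h, against CD3, CD28 and ICOS. The sample descriptions call the Unstimulated libraries Naive_CD4, a name that the descriptions of the other groups lack. The series' design line calls the T cells transduced, but no sample label names a vector, transgene, deletion or sorting gate, and whether libraries of one group derive from different mice or cultures is not stated. The p-values rest on the variation among these libraries alone, part or all of which may be technical.

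CD28 is a receptor on T cells that binds CD80 and CD86 on antigen-presenting cells. With the T cell receptor engaged, CD28 recruits phosphoinositide 3-kinase, GRB2 and LCK, and together the receptors drive NF-kB, NFAT and AP-1 transcription factors. Costimulation through it is known for interleukin-2 production, induction of the high-affinity interleukin-2 receptor, BCL-XL-dependent survival and glucose uptake, and stimulation without it can leave CD4+ T cells anergic.

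Values are CPM by library in the order of replicates 1, 2 and 3, means are ± SD over n = 3 libraries, and differences are log2 fold changes ± SE of CD3_CD28 over CD3 of log2(CPM + 1) values, a scale on which low genes appear to change less than they do. Adjusted p-values are from limma with Benjamini-Hochberg adjustment over the 9826 genes, and a gene was called at an adjusted p under 0.05. As deposited, 6324 genes (64.4%) were called, 1837 (18.7%) higher and 4487 (45.7%) lower, and 4.82% were higher and 9.96% lower by at least 1 log2 unit. The median log2 fold change over all tested genes was -0.24, and it was -0.03 after quantile normalization and -0.03 after scaling by a median of ratios, shifts of 0.21 and 0.21. With these scalings 61.0% and 61.2% of genes were called, 29.3% and 29.6% higher and 31.6% and 31.5% lower. In all 3 scalings 1817 genes (18.5%) were called higher and 2910 (29.6%) lower, and "rose" and "fell" are used only of those genes. Libraries of the groups did not overlap for 72.4% of tested genes, 21.7% with CD3_CD28 higher and 50.6% with it lower. Counts of called list members and groups without overlap given below are to be read beside these shares. In the authors' deposited table of the same comparison, 821 of the tested genes passed a false discovery rate of 0.05 as higher in CD3_CD28 and 1842 as lower. Of those in the authors' deposited table, 818 and 1838 had the same call here and 0 the opposite one.

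**Figure D1:**
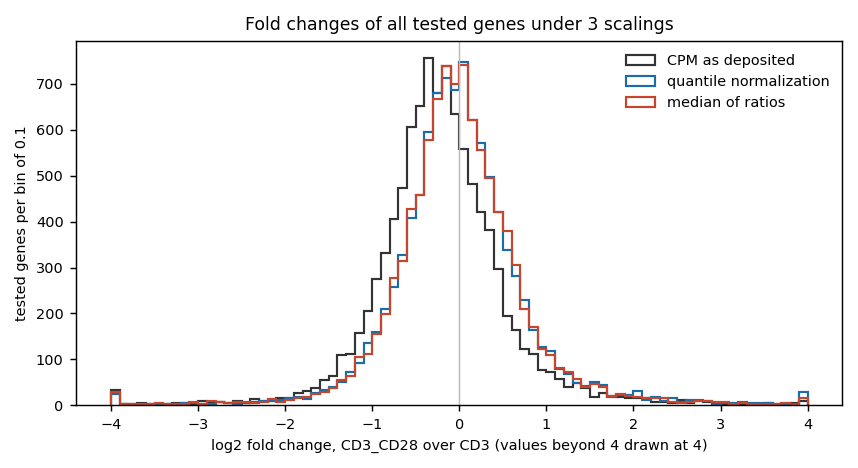
Number of tested genes (vertical axis, bins of 0.1) by log2 fold change of CD3_CD28 over CD3 (horizontal axis) for CPM as deposited, after quantile normalization and after scaling by a median of ratios. The deposited values centre at -0.24 and both rescaled sets at -0.03.

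Assigned reads, estimated in units of 1000000, were 11.4 to 26.5 per CD3 library, with replicate 1 the shallowest, and 22.3 to 25.5 per CD3_CD28 library. A ribosomal RNA gene, CT010467.1, took 11.8% of CD3_CD28 replicate 1 against 1.6% and 2.74% of replicates 2 and 3, which lowers every other CPM value in that library. Markers of CD4 T cells were present in every library: Cd4 was at 596, 571 and 528 CPM in CD3 and 859, 1018 and 1063 CPM in CD3_CD28 and Trac, the constant region of the T cell receptor alpha chain, at 605, 535 and 527 CPM in CD3 and 383, 467 and 415 CPM in CD3_CD28. Cd4 rose by 0.79 ± 0.10 log2 units whereas Trac fell by 0.40 ± 0.09 log2 units. Cd3e, a CD3 chain, fell by 0.93 ± 0.10 log2 units. Of 11 tested CD4 T cell markers, 2 were called higher and 8 lower (2 and 6 in all 3 scalings). These were 18.2% and 72.7%, against 18.7% and 45.7% of all tested genes.

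B cell genes separated the groups. Of 15 tested B cell markers, 14 fell, with a median log2 fold change of -3.73 over the list (29.6% of all tested genes were called lower in all 3 scalings). Ms4a1, which encodes CD20, was at 40.7, 41.2 and 86.2 CPM in CD3 and 0.484, 0.179 and 0.196 CPM in CD3_CD28. Within CD3, replicate 3 held the highest level, and every CD3 library lay above every CD3_CD28 library. Pax5, the B lineage transcription factor, fell from 66.7 ± 30.6 to 0.688 ± 0.194 CPM and Cd79a, a chain of the B cell receptor, from 60.0 ± 24.9 to 0.765 ± 0.427 CPM. In CD3_CD28_ICOS, Ms4a1 stood at 107, 30.3 and 91.1 CPM. The summed level of the 15 markers ran from 1666 to 3040.5 CPM in CD3, from 379 to 432 CPM in CD3_CD28 and from 1567 to 3485 CPM in CD3_CD28_ICOS. H2-Ab1, a class II MHC gene, was the marker not called, at 122, 139 and 219.8 CPM in CD3 and 148, 128 and 112 CPM in CD3_CD28. In bulk libraries fewer B cells and less RNA per cell cannot be told apart, and the part of B cell RNA in the falls of other genes was not tested.

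Markers of CD8 T and natural killer cells were lower in sum as well, whereas those of myeloid cells were lower in sum through Mpeg1 alone. The macrophage genes C1qa, C1qb and Fcgr1 were at 0 in all 6 libraries, and of 8 tested myeloid markers Cd68 rose, Itgam and Mpeg1 fell, and Lyz2, Adgre1 and Csf1r, all under 1 CPM, were not called. The summed level of the myeloid markers ran from 37.5 to 74.5 CPM in CD3 and from 15.3 to 19.4 CPM in CD3_CD28. Without Mpeg1 it was at most 12.2 CPM in CD3 and had a median of 18.3 CPM in CD3_CD28, where every library stood higher than in CD3. Mpeg1 was at 25.3, 37.5 and 62.2 CPM in CD3 and 0.352, 0.269 and 0.275 CPM in CD3_CD28, with replicate 3 the highest CD3 library as for Ms4a1. Klrk1, an activating receptor of natural killer and CD8 T cells, fell from 20.4 ± 8.03 to 0.699 ± 0.593 CPM, and Cd8a from 9.4 ± 1.8 to 1.58 ± 0.121 CPM, while Cd8b1 rose from 16 ± 1.46 to 24.7 ± 3.74 CPM. The summed level of the CD8 and NK markers ran from 167 to 230.0 CPM in CD3 and from 64.5 to 120.1 CPM in CD3_CD28. The part of these cells in other results was not tested.

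Among the 15 largest rises were genes of secreted proteins and of enzymes. Of all tested genes, 115 reached the filter of 10 CPM in the 3 CD3_CD28 libraries and in no other library, so that the filter had set their direction and their tests support nothing. Nos2, Il24 and Lama5 were among them, as were Aldh1l2, Chac1, Cth, Gls2, Mt2, Perp and Phlda3, whose values are given further on. For 75 genes the filter was reached in the 3 CD3 libraries alone, and Spp1 was one. Nos2, inducible nitric oxide synthase (chromosome 11, 78920787 to 78960255 of mm10), was at 0.263, 0.455 and 0.716 CPM in CD3 and 71.3, 101 and 68.5 CPM in CD3_CD28 (log2 fold change 5.77 ± 0.41). Il24, a cytokine of the interleukin-10 family, was at 0, 0.0759 and 0 CPM in CD3 and 105, 20.9 and 43.7 CPM in CD3_CD28, above 0 in 1 CD3 library only, and its fitted log2 fold change of 5.52 depends on the pseudocount. Replicate 1 held the highest Il24 level and replicate 2 the lowest within CD3_CD28, and no CD3 library came near them. C3, the third complement component, rose by 4.87 ± 0.60 log2 units, Tgm2, tissue transglutaminase, by 4.4 ± 0.50 log2 units, and Lama5, a laminin chain, by 4.28 ± 0.24 log2 units. In CD3_CD28_ICOS the levels were 3.21 ± 3.5 CPM for Nos2, 55.8 ± 40.8 CPM for Tgm2 and 0 in all 3 libraries for Il24. Further large rises were those of Ppp1r3b, a glycogen-targeting phosphatase subunit, by 3.79 ± 0.53 log2 units and Atp2b4, a plasma membrane calcium pump, by 3.56 ± 0.40 log2 units.

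Among the 15 largest falls were the B cell genes Cd22, Ms4a1, Fcer2a, Pax5, Cd79a and H2-Aa, and Wdfy4 and Syk, whose CD3 levels of 71.8, 69.2 and 146 CPM and 41.9, 35.1 and 81.4 CPM were also highest in replicate 3. Pou2af1, a coactivator of octamer factors in lymphocytes, was at 341, 227 and 314 CPM in CD3 and 4.75, 9.89 and 11.6 CPM in CD3_CD28, with replicate 1 the highest CD3 library. The others were Serpina3f, Serpina3g, Ifi209, Iigp1 and Ccl22. Serpina3f, a serine protease inhibitor induced in activated lymphocytes, was at 77.7, 76 and 107 CPM in CD3 and 0.791, 1.3 and 0.431 CPM in CD3_CD28 (log2 fold change -5.59 ± 0.31, adjusted p = 7.51e-08). Serpina3g, its neighbour on chromosome 12, fell by 4.65 ± 0.49 log2 units, and reads may be shared between these close copies. Iigp1, an immunity-related GTPase, was at 193, 239 and 239.6 CPM in CD3 and 4.66, 8.68 and 10.2 CPM in CD3_CD28, and Ifi209, a member of the IFI200 family, fell by 4.79 ± 0.44 log2 units. Without CD3_CD28 replicate 1 the log2 fold change of Ifi209 was -4.14.

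**Figure D2:**
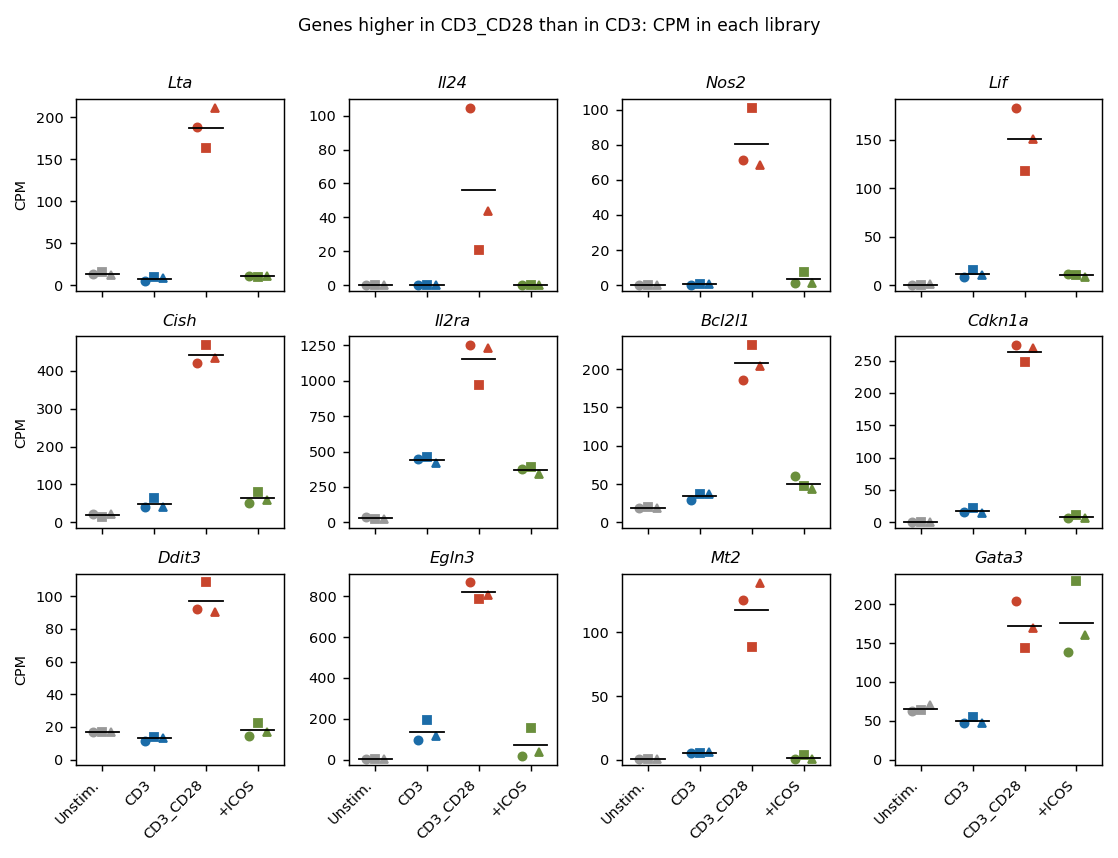
CPM (vertical axis) of 12 genes in each library of the 4 groups (horizontal axis, Unstimulated as Unstim. and CD3_CD28_ICOS as +ICOS), with circles, squares and triangles for replicates 1, 2 and 3 and lines for group means. In each panel the 3 CD3_CD28 libraries lie above the 3 CD3 libraries, and Il24 is at or near 0 outside CD3_CD28. For Nos2, Il24 and Mt2, which reached the filter through CD3_CD28 alone, the filter had set this separation.

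The CD28 family itself moved in both directions. Of the CD28 family and inhibitory receptors, 5 of 15 tested members were called higher and 7 lower (5 and 6 in all 3 scalings, median log2 fold change -0.08 as deposited, 0.19 after quantile normalization and 0.12 after a median of ratios). The share lower, 46.7%, lay close to the 45.7% of all tested genes, and the share higher was 33.3% against 18.7%. Cd28, the receptor that the added antibody engages, was at 664, 639.8 and 587 CPM in CD3 and 420.4, 509 and 467 CPM in CD3_CD28 and fell by 0.44 ± 0.10 log2 units, whereas Icos, the inducible costimulator, was at 90.2, 87.2 and 79 CPM in CD3 and 230.1, 216 and 253 CPM in CD3_CD28 (log2 fold change 1.44 ± 0.11, adjusted p = 3.01e-07). Neither gene's groups overlapped. Ctla4, the inhibitory receptor that shares CD28's ligands, was at 147, 164 and 151 CPM in CD3 and 325, 267 and 211 CPM in CD3_CD28, with replicate 1 the highest CD3_CD28 library. Its log2 fold change was 0.77 ± 0.24 log2 units, and the call (adjusted p = 0.0139) was lost without that library. Cd226, an activating receptor for CD155, rose from 24.1 ± 2.37 to 65.7 ± 4.47 CPM, and Cd274, which encodes PD-L1, from 42.5 ± 4.04 to 78.5 ± 6.53 CPM.

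Several inhibitory receptors fell, although the share of the list called lower was near that of all tested genes. Pdcd1, which encodes PD-1, was at 70.3, 40.0 and 46.3 CPM in CD3 and 11.9, 9.94 and 13.5 CPM in CD3_CD28 (log2 fold change -2.03 ± 0.32, adjusted p = 0.0002). Replicate 1 was the highest CD3 library, and Unstimulated cells held 8.52 ± 4.25 CPM. Btla fell from 161 ± 9.94 to 65.2 ± 4.11 CPM and Cd160 from 22.8 ± 6.87 to 5.54 ± 0.278 CPM, both receptors for HVEM. Tnfrsf14, the gene of HVEM, fell as well, from 36.8 ± 1.61 to 14.3 ± 1.68 CPM. Lag3, Tigit and Vsir were not called as deposited, with log2 fold changes of 0.39, -0.08 and 0.04, and Lag3 was called higher after quantile normalization and in the fit of the 6 libraries alone (limma adjusted p = 0.0216).

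Genes of the T cell receptor complex and its proximal kinases were called in both directions: 6 of 25 tested members were called higher and 13 lower (6 and 7 in all 3 scalings, median log2 fold change -0.17 as deposited, -0.01 after quantile normalization and 0.04 after a median of ratios). These shares, 24.0% and 52.0%, lay close to the 18.7% and 45.7% of all tested genes. Without CD3_CD28 replicate 1 or CD3 replicate 1 the number lower was 8. The CD3 chains Cd3e, Cd3d and Cd3g were lower, Cd3e at 419.9, 383 and 363 CPM in CD3 and 177, 224 and 212 CPM in CD3_CD28. Cd247, the zeta chain, was at 204, 216 and 187 CPM in CD3 and 241, 247 and 247 CPM in CD3_CD28 and rose by 0.28 ± 0.08 log2 units. Themis, a signalling adaptor of the T lineage, was at 101, 95.8 and 97.2 CPM in CD3 and 339, 359 and 373 CPM in CD3_CD28 (log2 fold change 1.85 ± 0.18, adjusted p = 4.57e-06), with no overlap between the groups. Rasgrp1, the exchange factor that couples diacylglycerol to RAS, rose by 1.03 ± 0.11 log2 units. Fyn, a SRC family kinase, fell by 0.62 ± 0.11 log2 units. Ptprc, which encodes CD45, fell by 0.77 ± 0.08 log2 units, and Ptpn22, a phosphatase that restrains LCK, by 0.57 ± 0.13 log2 units.

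Of the phosphoinositide 3-kinase, AKT and mTOR genes, 9 of 29 tested members were called higher and 11 lower (9 and 9 in all 3 scalings, median log2 fold change -0.11 as deposited, 0.08 after quantile normalization and 0.10 after a median of ratios). Trat1, a transmembrane adaptor of the receptor complex that binds the kinase, rose from 20.0 ± 4.79 to 53.6 ± 11 CPM. Sesn2 and Ddit4, which encodes REDD1, both stress-induced inhibitors of mTOR complex 1, rose from 14.1 ± 0.459 to 57.5 ± 3.4 CPM and from 161 ± 27.8 to 455 ± 58 CPM. Tsc1 and Tsc2, whose products form the complex that restrains mTOR complex 1, fell by 0.43 ± 0.11 log2 units and 0.45 ± 0.09 log2 units. Eif4ebp1, a translation repressor that mTOR inactivates, rose from 37.8 ± 6.33 to 101 ± 8.87 CPM. Sesn1, the paralogue of Sesn2, was at 148, 120.0 and 140.2 CPM in CD3 and 24.2, 39.8 and 41.8 CPM in CD3_CD28 and fell by 1.95 ± 0.21 log2 units. Phlpp1, a phosphatase of AKT, fell by 0.91 ± 0.18 log2 units, and Eif4ebp2, a paralogue of Eif4ebp1, by 0.76 ± 0.08 log2 units. The kinase gene Akt2 fell by 0.66 ± 0.11 log2 units.

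The NF-kB pathway carries signals from CD28 and the T cell receptor through BCL10 and MALT1. Of its list, 9 of 23 tested members were called higher and 5 lower (8 and 4 in all 3 scalings, median log2 fold change 0.24 as deposited, 0.44 after quantile normalization and 0.45 after a median of ratios). Nfkbia, the inhibitor IkB-alpha, was at 97.8, 122 and 123 CPM in CD3 and 188, 287 and 229 CPM in CD3_CD28 (log2 fold change 1.02 ± 0.21, adjusted p = 0.00116), and Nfkbib, IkB-beta, was at 41.9, 41.3 and 42 CPM in CD3 and 84.2, 127 and 109.8 CPM in CD3_CD28 (log2 fold change 1.32 ± 0.13, adjusted p = 2.46e-06). Replicate 2 was the highest CD3_CD28 library for both, and neither gene's groups overlapped. Bcl3, an atypical IkB that acts with p50 and p52, rose by 1.17 ± 0.20 log2 units, Tnip1, a partner of the deubiquitinase A20, by 1.02 ± 0.09 log2 units, and Nfkb2, the precursor of p52, by 1.02 ± 0.18 log2 units. Malt1, the protease that acts with BCL10, rose by 0.68 ± 0.09 log2 units. The kinase genes Ikbkb and Chuk fell by 0.97 ± 0.12 log2 units and 0.56 ± 0.11 log2 units, and Nfkbie, IkB-epsilon, by 1.06 ± 0.18 log2 units.

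Promoters of 3 rising members are shown because each holds an NF-kB motif just before a RefSeq start. The motif searched was GGG and TTCC with 3 bases of any kind between them, on both strands of the 250 bases before each start (RefSeq, GRCm38.p6). It stood in 4.65% of all 32851 windows and in 12 of 25 windows of the list, 48.0%. Each line gives the 100 bases up to the start, on the gene's strand, with the match in capitals, overlapping matches merged. They lie at chr12:55492648-55492747 (minus strand), chr19:46304637-46304736 (plus strand, 1 of 3 annotated starts) and chr11:54962941-54963040 (minus strand).
Nfkbia: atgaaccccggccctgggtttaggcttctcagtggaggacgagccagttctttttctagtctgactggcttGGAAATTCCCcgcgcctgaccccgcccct
Nfkb2: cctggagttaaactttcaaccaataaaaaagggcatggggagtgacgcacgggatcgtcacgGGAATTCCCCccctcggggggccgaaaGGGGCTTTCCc
Tnip1: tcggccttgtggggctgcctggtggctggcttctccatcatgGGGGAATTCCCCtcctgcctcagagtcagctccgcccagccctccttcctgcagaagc
The matches began 29 bases before the start in Nfkbia, 38 and 11 bases before it in Nfkb2 and 58 bases before it in Tnip1. Of the members with a window, 4 of 7 called higher held a match, as did 2 of 4 called lower, Nfkbie and Chuk, and 3 of 6 not called.

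Of the AP-1 genes and MAP kinase brakes, 6 of 18 tested members were called higher and 3 lower (6 and 2 in all 3 scalings, median log2 fold change 0.24 as deposited, 0.45 after quantile normalization and 0.44 after a median of ratios). Atf3, an AP-1 family factor of stress responses, was at 7.72, 11.3 and 6.03 CPM in CD3 and 72.9, 71.3 and 53.7 CPM in CD3_CD28 (log2 fold change 2.86 ± 0.54, adjusted p = 0.000816). Fosl2, which encodes FRA-2, was at 72.1, 76.6 and 50.0 CPM in CD3 and 266, 322 and 226 CPM in CD3_CD28 (log2 fold change 2.03 ± 0.43, adjusted p = 0.00229), and Batf, a partner of JUN and IRF4, at 16.5, 17.9 and 17.2 CPM in CD3 and 53.4, 32.4 and 36.3 CPM in CD3_CD28 (log2 fold change 1.17 ± 0.17, adjusted p = 5.39e-05). For all 3 genes the groups stayed apart. Fos and Jun, subunits of the classical dimer, were not called. Junb was at 243, 279 and 222 CPM in CD3 and 411, 472 and 412 CPM in CD3_CD28 without overlap. Its log2 fold change of 0.80 ± 0.73 log2 units was not called (adjusted p = 0.357) with all 12 libraries in the fit, and the adjusted p was 4.9e-05 with the 6 compared libraries alone. Dusp6 and Spry1, feedback inhibitors of ERK signalling, fell by 1.4 ± 0.23 log2 units and 1.01 ± 0.23 log2 units, while Dusp4, another such phosphatase, rose by 1.04 ± 0.27 log2 units and Spred2, an inhibitor of RAS activation, by 1.19 ± 0.09 log2 units.

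Of the NFAT, calcineurin, EGR and NR4A genes, 3 of 18 tested members were called higher and 9 lower (3 and 7 in all 3 scalings, median log2 fold change -0.25 as deposited, -0.09 after quantile normalization and -0.04 after a median of ratios). At 16.7% and 50.0% the list lay close to all tested genes (18.7% and 45.7%). Nfatc1, which encodes NFAT2, was at 489.8, 443 and 408 CPM in CD3 and 219, 273 and 283 CPM in CD3_CD28 and fell by 0.79 ± 0.11 log2 units. Nfatc2, which encodes NFAT1, was at 87.7, 100.2 and 87 CPM in CD3 and 172, 169 and 178 CPM in CD3_CD28 (log2 fold change 0.91 ± 0.11, adjusted p = 1.31e-05), and Nfatc3 was not called at a log2 fold change of -0.02. The groups did not overlap for Nfatc1 or Nfatc2. Nfat5, the osmotic stress member that calcineurin does not regulate, rose from 142 ± 6.69 to 408 ± 22.2 CPM. The receptor-induced zinc finger genes Egr2 and Egr3 fell by 1.64 ± 0.27 log2 units and 0.73 ± 0.14 log2 units, and Nr4a2, an orphan nuclear receptor, by 1.5 ± 0.31 log2 units. Tox, a nuclear factor of chronic stimulation, was at 89.3, 67 and 75.3 CPM in CD3 and 19.7, 37.1 and 34.5 CPM in CD3_CD28 and Ppp3ca, the calcineurin catalytic subunit, at 49.6, 37.9 and 48.3 CPM in CD3 and 19.1, 18.7 and 26.7 CPM in CD3_CD28. Tox fell by 1.35 ± 0.21 log2 units and Ppp3ca by 1.05 ± 0.14 log2 units.

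TNF superfamily ligands and receptors carry much of the contact signalling between T cells and other cells. Of the ligands, 8 of 10 tested members were called higher and 1 lower (median log2 fold change 0.90), and 9 of 10 were called higher under each rescaling. Of all tested genes, 18.7% were called higher as deposited, 29.3% after quantile normalization and 29.6% after a median of ratios. Lta, lymphotoxin alpha, was at 5.0, 9.19 and 8.1 CPM in CD3 and 189, 163 and 211 CPM in CD3_CD28, a 25.3-fold difference (log2 fold change 4.51 ± 0.18, adjusted p = 4.04e-09). The lowest CD3_CD28 library stood far above the highest CD3 library, while the CD3_CD28_ICOS libraries held 11, 9.79 and 11 CPM. Tnfsf14, which encodes LIGHT, rose from 8.05 ± 1.22 to 39.1 ± 4.14 CPM, Tnfsf11, which encodes RANKL, from 12 ± 0.583 to 49.7 ± 8.77 CPM, and Tnf from 10.6 ± 0.934 to 37.3 ± 2.19 CPM. Tnfsf8, the CD30 ligand, rose from 47.1 ± 6.88 to 96.4 ± 5.93 CPM and Fasl from 17 ± 0.762 to 30.2 ± 4.62 CPM. Tnfsf10, which encodes TRAIL, was at 36.2, 31.2 and 35.3 CPM in CD3 and 11.1, 8.86 and 14.8 CPM in CD3_CD28 and fell by 1.51 ± 0.22 log2 units. Cd40lg and Tnfsf4, at log2 fold changes of 0.56 and 0.73, were called with all libraries and lost the call without CD3_CD28 replicate 2 or 3 or CD3 replicate 3 (Tnfsf4 also without CD3 replicate 2).

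Of their receptors, 9 of 12 tested members were called higher and 2 lower (median log2 fold change 0.59), against 18.7% and 45.7% of all tested genes. Tnfrsf18, which encodes GITR, was at 127, 154 and 122 CPM in CD3 and 443, 507 and 457 CPM in CD3_CD28 (log2 fold change 1.8 ± 0.12, adjusted p = 1.51e-07). Tnfrsf9, which encodes 4-1BB, was at 405, 437 and 362 CPM in CD3 and 1262, 1090.1 and 1228 CPM in CD3_CD28, and Tnfrsf4, which encodes OX40, at 173, 205 and 142 CPM in CD3 and 461, 602 and 468 CPM in CD3_CD28 (log2 fold change 1.56 ± 0.18, adjusted p = 1.28e-05). For these 3 costimulatory receptors each CD3_CD28 library stood above each CD3 library. Cd27, a costimulatory receptor of naive and memory cells, was at 167, 154 and 147 CPM in CD3 and 48.2, 48.8 and 64.6 CPM in CD3_CD28 and fell by 1.53 ± 0.14 log2 units, with Unstimulated at 208 ± 38 CPM. Tnfrsf10b, a receptor of TRAIL, rose by 1.41 ± 0.16 log2 units, Tnfrsf25, a receptor of TL1A, by 0.78 ± 0.17 log2 units, and Tnfrsf13b, which encodes TACI, by 0.68 ± 0.11 log2 units. Tnfrsf26 rose by 0.50 ± 0.11 log2 units. The death receptor gene Fas (log2 fold change 0.42) lost its call without CD3_CD28 replicate 2 or CD3 replicate 1, and Tnfrsf1a, a receptor of TNF (0.36), without any one of 5 libraries. Tnfrsf1b, the other TNF receptor, had a log2 fold change of 0.14 and was called higher only in the rescaled sets. Tnfrsf8, which encodes CD30, was below the filter and not tested, at 2.54, 3.07 and 2.75 CPM in CD3 and 36.8, 8.01 and 19.2 CPM in CD3_CD28, with replicate 1 the highest.

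**Figure D3:**
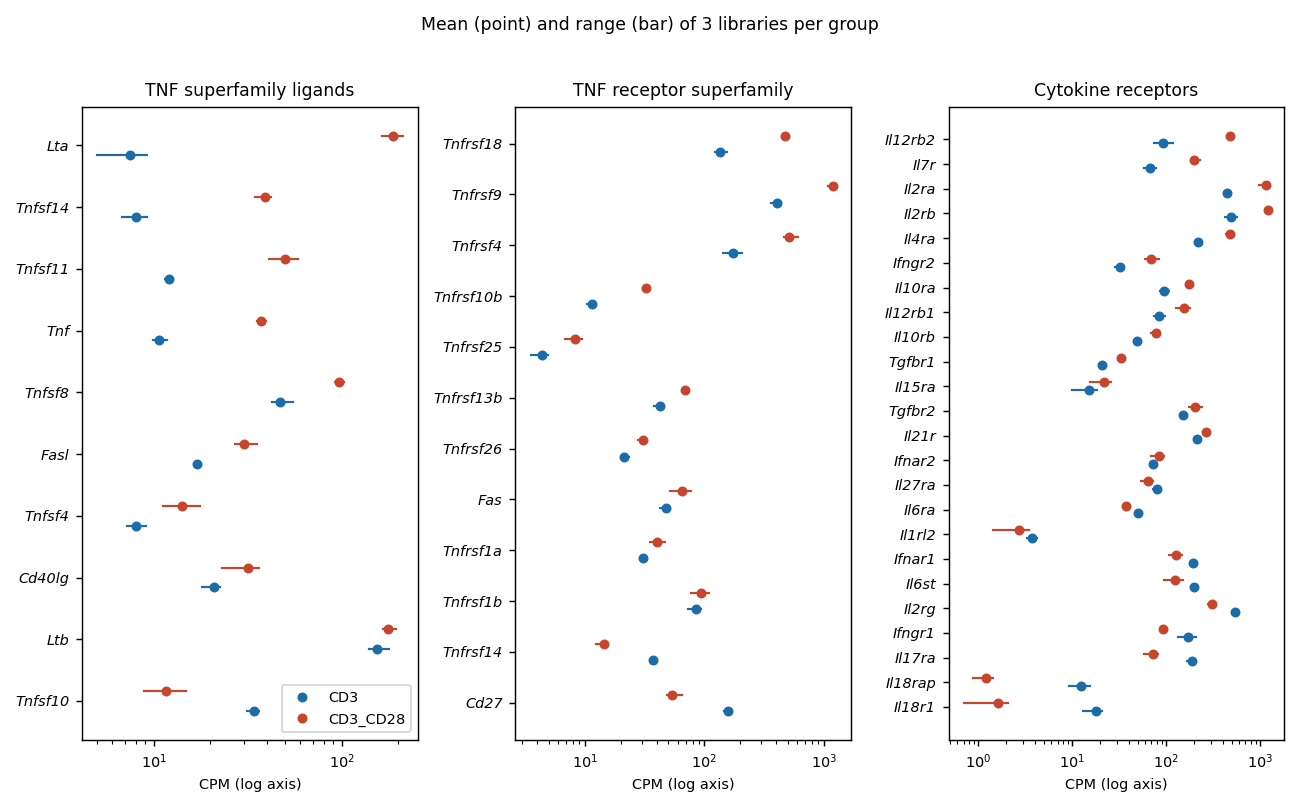
CPM (horizontal log axis) of the tested TNF superfamily ligands, TNF receptors and cytokine receptors (rows, ordered by log2 fold change), with points for the mean and bars for the range of 3 libraries in CD3 and CD3_CD28. Lta shows the widest separation among the ligands, and Il18r1 and Il18rap the widest in the opposite direction among the receptors.

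Of secreted cytokines, chemokines and mediators, 6 of 11 tested members were called higher and 4 lower (6 and 3 in all 3 scalings, median log2 fold change 1.36). Among them Il24, called higher, reached the filter through the CD3_CD28 libraries alone and Spp1, called lower, through the CD3 libraries alone. Lif, leukaemia inhibitory factor, was at 8.42, 15.8 and 9.98 CPM in CD3 and 183, 117 and 151 CPM in CD3_CD28 (log2 fold change 3.63 ± 0.27, adjusted p = 5.45e-07). Tgfb3, transforming growth factor beta 3, was at 8.6, 11.8 and 10.7 CPM in CD3 and 87.7, 88.4 and 80.0 CPM in CD3_CD28 (log2 fold change 2.94 ± 0.30, adjusted p = 5.41e-06), and Osm, oncostatin M, at 13.6, 16.9 and 14.5 CPM in CD3 and 55.9, 49.1 and 61.9 CPM in CD3_CD28 (log2 fold change 1.82 ± 0.13, adjusted p = 2.85e-07). In these 3 genes all CD3_CD28 libraries lay far above the CD3 ones. Penk, the enkephalin precursor, rose from 3.99 ± 0.90 to 22.5 ± 5.31 CPM and Ebi3, a shared chain of interleukins 27 and 35, from 7.28 ± 1.95 to 19.9 ± 2.06 CPM. Tgfb1 was at 350.1, 311 and 309 CPM in CD3 and 227, 227 and 278 CPM in CD3_CD28 and lower as deposited and after quantile normalization only. Ccl22, a ligand of CCR4, fell by 4.72 ± 0.33 log2 units, and Spp1, osteopontin, by 4.6 ± 0.37 log2 units. Ccl22 was at 71.5, 91.4 and 162 CPM in CD3 and 5.1, 2.55 and 1.73 CPM in CD3_CD28, with CD3 replicate 3 the highest as in Ms4a1, and the part of B cell RNA in it was not tested.

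Of the secreted list, 24 members were below the filter or absent from the data and had no test. Only some of them are given here, and these varied between CD3_CD28 libraries. Levels of the others are not reported here, so those given do not stand for all cytokines below the filter. Il13 was at 0.351, 0.797 and 0.49 CPM in CD3 and 29.4, 3.76 and 11.5 CPM in CD3_CD28, Il5 at 0.0877, 0.114 and 0 CPM in CD3 and 12.1, 1.21 and 3.57 CPM in CD3_CD28 and Il21 at 0.526, 0.0759 and 0.151 CPM in CD3 and 17.9, 1.39 and 4.88 CPM in CD3_CD28. Replicate 1 held the highest CD3_CD28 level of each of these genes and replicate 2 the lowest, the same order as for Il24. Il2 stood at 0.268, 0.194 and 0.0385 CPM in CD3 and 1.61, 3.48 and 3.33 CPM in CD3_CD28 and Il3, a growth factor of blood cells, at 0, 0 and 0.0377 CPM in CD3 and 1.14, 1.03 and 1.88 CPM in CD3_CD28. Csf2, which encodes GM-CSF, stood at 0.175, 0.152 and 0.49 CPM in CD3 and 5.28, 7.61 and 9.65 CPM in CD3_CD28. For Il2, Il3 and Csf2 the groups did not overlap, whereas for Ifng, at 2.28, 1.37 and 0.791 CPM in CD3 and 2.42, 0.582 and 1.29 CPM in CD3_CD28, they did.

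Of cytokine receptors, 12 of 24 tested members were called higher and 9 lower (12 and 7 in all 3 scalings, median log2 fold change 0.36 as deposited, 0.48 after quantile normalization and 0.58 after a median of ratios). Il2ra, the interleukin-2 receptor alpha chain CD25, was at 445, 458 and 418 CPM in CD3 and 1251, 971 and 1230.4 CPM in CD3_CD28 (log2 fold change 1.38 ± 0.14, adjusted p = 4.53e-06), and Il2rb, the beta chain, at 465, 567 and 429 CPM in CD3 and 1233, 1148 and 1242 CPM in CD3_CD28 (log2 fold change 1.32 ± 0.20, adjusted p = 0.00015). Il2rg, the common gamma chain that completes the receptor, was at 542, 571 and 514 CPM in CD3 and 281, 320.2 and 333 CPM in CD3_CD28 and fell by 0.80 ± 0.09 log2 units. The alpha and beta chains were thus above CD3 in every library and the gamma chain below it in every library. Il12rb2, the signalling chain of the interleukin-12 receptor, was at 118, 89.5 and 74.1 CPM in CD3 and 514, 470.1 and 472 CPM in CD3_CD28 (log2 fold change 2.38 ± 0.18, adjusted p = 4.71e-07). Il7r rose from 67.6 ± 10.0 to 199.7 ± 25 CPM, still under its Unstimulated level of 723 ± 221 CPM, and Il4ra from 219 ± 17.1 to 474 ± 33.8 CPM. Receptors of interleukin-18, a cytokine that acts with interleukin-12 on interferon-gamma, went the other way. Il18r1 was at 19.9, 12.9 and 20.8 CPM in CD3 and 0.703, 2.06 and 2.08 CPM in CD3_CD28 and Il18rap at 13, 9.38 and 15.3 CPM in CD3 and 0.879, 1.3 and 1.45 CPM in CD3_CD28, and they fell by 2.88 ± 0.26 log2 units and 2.6 ± 0.30 log2 units. Ifngr1, the ligand-binding chain of the interferon-gamma receptor, fell by 0.83 ± 0.16 log2 units. Il6st, which encodes gp130, fell by 0.72 ± 0.20 log2 units and Il17ra by 1.38 ± 0.14 log2 units.

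Of the JAK, STAT and SOCS genes, which transmit and restrain cytokine signals, 11 of 23 tested members were called higher and 6 lower (11 and 3 in all 3 scalings, median log2 fold change 0.12 as deposited, 0.29 after quantile normalization and 0.34 after a median of ratios). Cish, a STAT5-induced feedback inhibitor, was at 39.7, 65.1 and 40.2 CPM in CD3 and 421, 468 and 434 CPM in CD3_CD28 (log2 fold change 3.2 ± 0.21, adjusted p = 2.72e-07), and Socs2, another, at 4.53, 10.4 and 6.85 CPM in CD3 and 42.5, 36.5 and 51.7 CPM in CD3_CD28 (log2 fold change 2.48 ± 0.30, adjusted p = 1.66e-05). In both, the lowest CD3_CD28 library was several-fold above the highest CD3 library. The kinases Pim1 and Pim2, survival genes downstream of cytokine receptors, rose by 1.99 ± 0.15 log2 units and 2.04 ± 0.19 log2 units. Stat5a itself was at 167, 183 and 178 CPM in CD3 and 381, 444 and 387 CPM in CD3_CD28 (log2 fold change 1.19 ± 0.10, adjusted p = 5.78e-07). Stat2, a factor of interferon signalling, fell by 0.75 ± 0.15 log2 units and the kinase gene Tyk2 by 0.50 ± 0.09 log2 units.

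Of T cell transcription factors, 12 of 36 tested members were called higher and 15 lower (12 and 11 in all 3 scalings, median log2 fold change 0.04 as deposited, 0.22 after quantile normalization and 0.22 after a median of ratios). Bhlhe40, a repressor that favours inflammatory cytokines, was at 154, 234 and 203 CPM in CD3 and 1010.1, 1208 and 937 CPM in CD3_CD28 (log2 fold change 2.42 ± 0.40, adjusted p = 0.000483). Nfil3 was at 30.2, 39.1 and 30.6 CPM in CD3 and 226, 130.4 and 146 CPM in CD3_CD28 (log2 fold change 2.26 ± 0.41, adjusted p = 0.00073), with replicate 1 the highest, and Gata3, the factor of type 2 helper cells, at 47.3, 55.4 and 46.7 CPM in CD3 and 204, 144 and 169.8 CPM in CD3_CD28 (log2 fold change 1.76 ± 0.17, adjusted p = 3.06e-06). No library of one group reached the other in these genes. Runx3, Ikzf4, which encodes EOS, and Zbtb32 rose by 2.15 ± 0.15 log2 units, 2.21 ± 0.16 log2 units and 2.17 ± 0.19 log2 units.

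Other factors fell. Myb, a factor of self-renewal, was at 524, 363 and 488 CPM in CD3 and 26.7, 64.3 and 56 CPM in CD3_CD28 (log2 fold change -3.27 ± 0.40, adjusted p = 6.32e-05). Bcl6, the repressor of follicular helper cells, was at 64.5, 27.9 and 41.1 CPM in CD3 and 5.06, 6.58 and 4.94 CPM in CD3_CD28 (log2 fold change -2.73 ± 0.24, adjusted p = 2.07e-06), with CD3 replicate 1 the highest library. Tcf7, which encodes TCF-1, was at 837, 664 and 777 CPM in CD3 and 329.8, 485 and 411 CPM in CD3_CD28 and fell by 0.90 ± 0.13 log2 units. For each of the 3 genes the groups did not overlap. Klf2, which drives exit from lymph nodes, and Id3, an inhibitor of E proteins, fell by 2.11 ± 0.30 log2 units and 1.71 ± 0.18 log2 units. Id2, the related inhibitor, rose by 1.63 ± 0.16 log2 units. Irf1, an interferon-induced factor, fell by 1.56 ± 0.12 log2 units. Tbx21, which encodes T-BET, was at 61.9, 61 and 56.7 CPM in CD3 and 25.4, 18 and 21.8 CPM in CD3_CD28 and fell by 1.43 ± 0.20 log2 units. Foxp3, the factor of regulatory T cells, was at 14.8, 5.68 and 7.65 CPM in CD3 and 2.86, 4.53 and 5.22 CPM in CD3_CD28 and not called (adjusted p = 0.163), although its groups did not overlap. In the fit of the 6 libraries alone it was called lower (adjusted p = 0.0243).

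**Figure D4:**
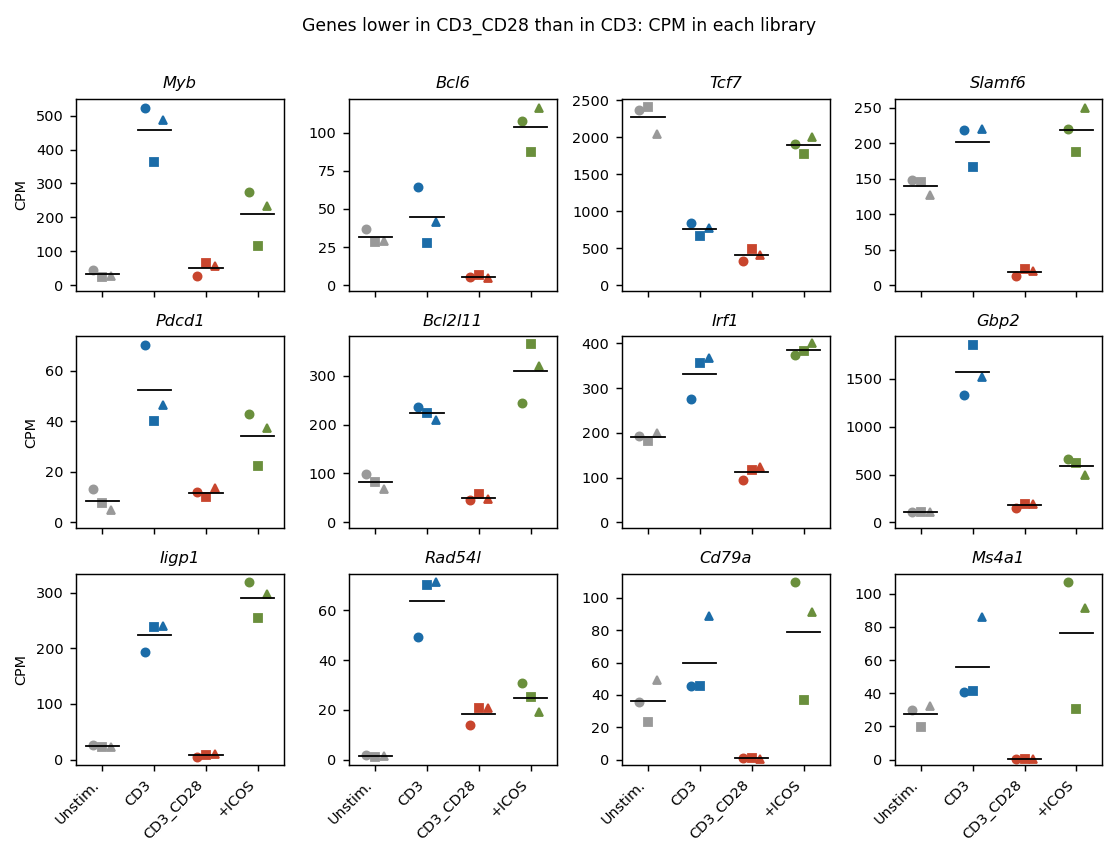
CPM (vertical axis) of 12 genes in each library of the 4 groups (horizontal axis, Unstimulated as Unstim. and CD3_CD28_ICOS as +ICOS), with circles, squares and triangles for replicates 1, 2 and 3 and lines for group means. The CD3_CD28 libraries lie below every CD3 library in each panel, and Cd79a and Ms4a1 are near 0 in CD3_CD28 alone.

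Of chemokine receptors and homing genes, 3 of 15 tested members were called higher and 9 lower (3 and 6 in all 3 scalings, median log2 fold change -0.51 as deposited, -0.30 after quantile normalization and -0.30 after a median of ratios). Ccr8, found on type 2 helper and regulatory T cells, was at 9.56, 9.64 and 6.25 CPM in CD3 and 82, 76.8 and 72.4 CPM in CD3_CD28 (log2 fold change 3.06 ± 0.19, adjusted p = 7.51e-08), and Ccr4, a skin-homing receptor, at 20.5, 21 and 12.8 CPM in CD3 and 106, 63.5 and 72.6 CPM in CD3_CD28 (log2 fold change 2.09 ± 0.26, adjusted p = 2.89e-05). Both were higher in every CD3_CD28 library. S1pr1, which guides exit from lymph nodes, was at 114, 84.1 and 103 CPM in CD3 and 31.9, 48.9 and 54.6 CPM in CD3_CD28. It fell by 1.16 ± 0.18 log2 units, and was higher in Unstimulated, at 656 ± 55.8 CPM. Cxcr5 and Ccr6, which B cells also express, fell by 1.58 ± 0.37 log2 units and 4.17 ± 0.48 log2 units, with replicate 3 the highest CD3 library of each, at 23.7, 23.4 and 48.1 CPM and 13.9, 15.8 and 40.4 CPM. Ccr7 was not called at 863, 929 and 803 CPM in CD3 and 620.3, 1021 and 793 CPM in CD3_CD28, its groups overlapping.

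Of integrins and adhesion genes, 7 of 20 tested members were called higher and 7 lower (median log2 fold change -0.04 as deposited, 0.11 after quantile normalization and 0.17 after a median of ratios), and of SLAM family genes, 2 of 7 tested members were called higher and 2 lower (median log2 fold change 0.03 as deposited, 0.12 after quantile normalization and 0.24 after a median of ratios). Itgav, the integrin alpha V chain, was at 56.1, 47.7 and 48.7 CPM in CD3 and 162, 187 and 170.2 CPM in CD3_CD28 (log2 fold change 1.75 ± 0.14, adjusted p = 6.27e-07), and Alcam, a ligand of CD6, was at 175, 139 and 155 CPM in CD3 and 38.5, 26.4 and 39.1 CPM in CD3_CD28 and fell by 2.16 ± 0.23 log2 units. Slamf6, a homotypic receptor of naive and follicular T cells, was at 218, 166 and 219.8 CPM in CD3 and 12.7, 22 and 19.6 CPM in CD3_CD28 (log2 fold change -3.43 ± 0.18, adjusted p = 3.61e-08), whereas Slamf7 rose from 101 ± 5.94 to 255 ± 23.6 CPM. Sh2d1a, the adaptor SAP that SLAM receptors bind, rose from 11.8 ± 3.02 to 40.1 ± 1.38 CPM. Cd84, another SLAM receptor, fell by 1.06 ± 0.14 log2 units. Ly9 and Sh2d2a were not called, with log2 fold changes of -0.20 and 0.03, and Slamf1, at 0.21, was called higher only in the rescaled sets.

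Of cytotoxic granule genes and serpins, 3 of 11 tested members were called higher and 4 lower (median log2 fold change 0.03 as deposited, 0.23 after quantile normalization and 0.24 after a median of ratios). Gzmb, the granule protease granzyme B, was at 313, 533 and 377 CPM in CD3 and 1298, 1669 and 1769 CPM in CD3_CD28 (log2 fold change 1.97 ± 0.32, adjusted p = 0.000371), and the serpin gene Serpinb6b at 132, 114 and 115 CPM in CD3 and 759, 870.0 and 815 CPM in CD3_CD28 (log2 fold change 2.75 ± 0.14, adjusted p = 1.54e-08). Both were higher in all CD3_CD28 libraries, while Prf1, perforin, fell from 13.4 ± 2.61 to 6.54 ± 1.64 CPM. Gzmb was at 49.2 ± 20.5 CPM in CD3_CD28_ICOS.

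Of hypoxia-inducible genes, 15 of 20 tested members were called higher and 1 lower (15 and 0 in all 3 scalings, median log2 fold change 1.06), against 18.7% of all tested genes called higher. Egln3, the oxygen-sensing prolyl hydroxylase PHD3, was at 94.8, 192 and 115 CPM in CD3 and 868, 785 and 806 CPM in CD3_CD28 (log2 fold change 2.67 ± 0.66, adjusted p = 0.00651), and Ndrg1 at 113, 197 and 119 CPM in CD3 and 799.7, 1037 and 784 CPM in CD3_CD28 (log2 fold change 2.64 ± 0.67, adjusted p = 0.00709). Ero1l, an oxidase of disulfide formation, was at 167, 290.4 and 206 CPM in CD3 and 1469, 1480.4 and 1156 CPM in CD3_CD28 (log2 fold change 2.65 ± 0.45, adjusted p = 0.0006). Within CD3, replicate 2 was the highest library of each of these genes, and it remained far below every CD3_CD28 library. P4ha2, a collagen prolyl hydroxylase, and Gbe1, the glycogen branching enzyme, rose by 2.76 ± 0.70 log2 units and 2.0 ± 0.42 log2 units. Hif1a, the inducible factor's own alpha subunit, which is controlled largely through protein stability, was at 1094, 902 and 840.1 CPM in CD3 and 841, 629.7 and 705 CPM in CD3_CD28. It was called lower as deposited and not after a median of ratios.

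Of nutrient transporters, 8 of 20 tested members were called higher and 7 lower (8 and 5 in all 3 scalings, median log2 fold change 0.01 as deposited, 0.24 after quantile normalization and 0.22 after a median of ratios). Slc2a1, the glucose transporter GLUT1, was at 114, 191 and 127 CPM in CD3 and 350.1, 450.3 and 354 CPM in CD3_CD28 (log2 fold change 1.44 ± 0.37, adjusted p = 0.00617). Slc3a2 and Slc7a5, the heavy and light chains of the large neutral amino acid transporter, went from 105 ± 10.1 to 267 ± 23.1 CPM and from 139.8 ± 4.58 to 303 ± 17.5 CPM. Other carriers moved down: Slc29a1, the nucleoside transporter ENT1, was at 215, 190.2 and 194 CPM in CD3 and 27.2, 36.8 and 37.2 CPM in CD3_CD28 (log2 fold change -2.54 ± 0.15, adjusted p = 7.51e-08), and Slc1a5, which carries glutamine, fell from 203 ± 20.3 to 98.8 ± 21.6 CPM. Slc19a1, the reduced folate carrier, and Tfrc, the transferrin receptor, fell by 1.09 ± 0.18 log2 units and 0.80 ± 0.21 log2 units. Txnip, which restrains glucose uptake, was at 461, 364 and 479 CPM in CD3 and 53.6, 69.2 and 70.8 CPM in CD3_CD28 and fell by 2.73 ± 0.23 log2 units, with Unstimulated at 854 ± 92.2 CPM.

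ATF4 is a transcription factor of the integrated stress response that drives amino acid synthesis and uptake. Of its regulators and targets, 13 of 15 tested members were called higher and 1 lower (13 and 0 in all 3 scalings, median log2 fold change 1.62), against 18.7% of all tested genes called higher. The 13 include Chac1 and Cth, which reached the filter through the CD3_CD28 libraries alone. Atf4 was at 150.2, 173 and 159 CPM in CD3 and 471, 513 and 481 CPM in CD3_CD28 (log2 fold change 1.6 ± 0.14, adjusted p = 1.06e-06), and Ddit3, which encodes CHOP, at 11.5, 14 and 13.3 CPM in CD3 and 92.3, 109 and 90.5 CPM in CD3_CD28 (log2 fold change 2.82 ± 0.14, adjusted p = 1.41e-08). Trib3, a pseudokinase target, was at 7.11, 9.87 and 6.86 CPM in CD3 and 72.8, 81.2 and 72.8 CPM in CD3_CD28 (log2 fold change 3.11 ± 0.28, adjusted p = 2.02e-06). The lowest CD3_CD28 library exceeded the highest CD3 library by more than 2-fold in all 3 genes. Cth, cystathionine gamma-lyase, rose from 1.75 ± 0.644 to 20.2 ± 1.5 CPM, Atf5 from 5.93 ± 0.397 to 44.2 ± 8.02 CPM and Asns, asparagine synthetase, from 46 ± 3.2 to 144 ± 8.86 CPM. In CD3_CD28_ICOS, Asns was at 16.1 ± 5.89 CPM and Atf4 at 111 ± 7.07 CPM. Eif2ak3, which encodes the kinase PERK, rose by 0.71 ± 0.13 log2 units, and Eif2ak4, which encodes GCN2, was lower as deposited only.

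Chac1, a glutathione-degrading enzyme, rose from 2.03 ± 0.382 to 10.6 ± 0.274 CPM. Of 11 members called higher that have a RefSeq window, 2 held an ATF4 motif, TGATGNAA on either strand, in the 250 bases before the start. They were Chac1 and Asns, and both are shown. The motif stood in 3.45% of all windows and in 3 of 19 windows of the list. The Chac1 line gives 220 bases (chr2:119351022-119351241, plus strand) and the Asns line 100 bases (chr6:7693210-7693309, minus strand) up to the start, with the match in capitals.
Chac1: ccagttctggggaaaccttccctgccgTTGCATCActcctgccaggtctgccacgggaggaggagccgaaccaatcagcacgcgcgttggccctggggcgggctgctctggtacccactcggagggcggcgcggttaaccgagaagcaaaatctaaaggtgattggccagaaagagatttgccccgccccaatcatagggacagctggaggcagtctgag
Asns: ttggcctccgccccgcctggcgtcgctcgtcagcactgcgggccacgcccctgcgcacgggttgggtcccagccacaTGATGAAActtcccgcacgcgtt
The match began 193 bases before the start of Chac1, on the opposite strand, and 23 bases before that of Asns. Nupr1, a stress gene below the filter at 0.351, 0.152 and 0.0377 CPM in CD3 and 10.2, 13 and 9.61 CPM in CD3_CD28, was the remaining member with a match.

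Of serine and one-carbon enzymes, 5 of 18 tested members were called higher and 6 lower (median log2 fold change 0.09 as deposited, 0.25 after quantile normalization and 0.30 after a median of ratios). Those called higher include Aldh1l2 and Pycr1, which reached the filter through the CD3_CD28 libraries alone. Aldh1l2, the mitochondrial formyltetrahydrofolate dehydrogenase, was at 1.44, 1.02 and 0.605 CPM in CD3 and 28.5, 24.7 and 26.7 CPM in CD3_CD28 (log2 fold change 3.79 ± 0.26), and Mthfd2, another mitochondrial folate enzyme, at 122, 122 and 132 CPM in CD3 and 210.0, 256 and 264 CPM in CD3_CD28 (log2 fold change 0.95 ± 0.10, adjusted p = 4.67e-06). The cytosolic enzymes Shmt1 and Mthfd1 fell from 79.5 ± 3.01 to 23.9 ± 7.67 CPM and from 130.3 ± 5.43 to 77.1 ± 15.7 CPM. Tyms, which encodes thymidylate synthase, fell by 2.08 ± 0.21 log2 units. Of aminoacyl-tRNA synthetases, 9 of 20 tested members were called higher and 5 lower (9 and 1 in all 3 scalings, median log2 fold change 0.14 as deposited, 0.32 after quantile normalization and 0.35 after a median of ratios). Sars rose by 1.05 ± 0.10 log2 units and Cars by 1.0 ± 0.14 log2 units. Wars, the tryptophanyl synthetase, which interferon-gamma induces, was at 190.3, 195 and 178 CPM in CD3 and 49.4, 43.6 and 67.5 CPM in CD3_CD28 and fell by 1.82 ± 0.13 log2 units.

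Of unfolded protein response and folding genes, 7 of 21 tested members were called higher and 5 lower (6 and 4 in all 3 scalings, median log2 fold change 0.11 as deposited, 0.24 after quantile normalization and 0.30 after a median of ratios). Xbp1, its spliced transcription factor, was at 109, 112 and 98 CPM in CD3 and 247, 268 and 275 CPM in CD3_CD28 (log2 fold change 1.31 ± 0.12, adjusted p = 2.15e-06), and Sel1l and Herpud1, which act in the degradation of misfolded proteins, rose by 0.90 ± 0.11 log2 units and 0.86 ± 0.09 log2 units. The disulfide isomerase Pdia3 and the chaperone Dnajb11 fell by 0.57 ± 0.10 log2 units and 0.64 ± 0.15 log2 units.

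Metallothioneins are small cysteine-rich proteins that bind zinc and copper. Of the list of glutathione, thioredoxin and metallothionein genes, 7 of 18 tested members were called higher and 7 lower (7 and 4 in all 3 scalings, median log2 fold change -0.15 as deposited, 0.05 after quantile normalization and 0.06 after a median of ratios). Those called higher include Mt2, which reached the filter through the CD3_CD28 libraries alone. Mt2 (chromosome 8, 94172664 to 94173569) was at 5.35, 4.97 and 5.58 CPM in CD3 and 126, 88.7 and 139 CPM in CD3_CD28 (log2 fold change 4.21 ± 0.33) and Mt1, its neighbour (chromosome 8, 94179082 to 94180328), at 9.91, 12.7 and 8.74 CPM in CD3 and 121, 97 and 129 CPM in CD3_CD28 (log2 fold change 3.35 ± 0.29, adjusted p = 1.69e-06). The CD3_CD28 libraries of both were far above all CD3 libraries, although for Mt2 the filter had set the direction in advance. CD3_CD28_ICOS stood at 1.5 ± 1.56 CPM for Mt2 and 4.23 ± 2.85 CPM for Mt1. Hmox1, heme oxygenase, rose from 1.96 ± 0.868 to 12.8 ± 1.56 CPM. Both metallothionein promoters are shown because such genes are known for metal response elements. The letters searched were TGCACNC and TGCGCNC on either strand, which stood in 21.4% of all windows, and 3 or more separate matches stood in 0.77% of them. Capitals mark matches in the 250 bases before Mt2 (chr8:94172368-94172617, plus strand) and the 100 bases before Mt1 (chr8:94178989-94179088, plus strand).
Mt2: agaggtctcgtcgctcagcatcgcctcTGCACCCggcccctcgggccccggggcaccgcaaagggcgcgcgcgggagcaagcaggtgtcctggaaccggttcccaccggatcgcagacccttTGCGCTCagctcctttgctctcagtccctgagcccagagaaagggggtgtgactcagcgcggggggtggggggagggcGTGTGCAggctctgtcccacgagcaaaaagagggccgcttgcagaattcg
Mt1: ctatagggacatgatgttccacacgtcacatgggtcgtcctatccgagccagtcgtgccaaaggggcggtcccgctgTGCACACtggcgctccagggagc
In its 250 bases Mt2 held 3 matches, beginning 223, 128 and 50 bases before its start. In the 100 bases shown Mt1 held 1, beginning 23 bases before its start. The 2 numbers are from windows of unlike length, and the shares of all windows are for 250 bases. Of the list's members with a window, 2 of 6 called higher held a match, Mt1 and Mt2. So did 2 of 6 called lower, Txnip and Glrx, and 2 of 3 not called. Slc30a1, a zinc exporter, rose from 7.03 ± 0.621 to 13.8 ± 1.88 CPM. The zinc importer Slc39a6 rose by 0.66 ± 0.14 log2 units.

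Of purine and pyrimidine synthesis genes, 3 of 23 tested members were called higher and 16 lower (3 and 14 in all 3 scalings, median log2 fold change -0.65), and of ribosome biogenesis genes, 4 of 26 tested members were called higher and 13 lower (4 and 10 in all 3 scalings, median log2 fold change -0.53 as deposited, -0.36 after quantile normalization and -0.32 after a median of ratios). For ribosome biogenesis the shares, 15.4% and 50.0%, lay close to the 18.7% and 45.7% of all tested genes. Rrm2 and Rrm1, the subunits of ribonucleotide reductase, were at 162, 200.1 and 195 CPM in CD3 and 49.3, 62.4 and 76.2 CPM in CD3_CD28 and at 467, 541 and 503 CPM in CD3 and 154, 215 and 229 CPM in CD3_CD28. Rrm2 fell by 1.57 ± 0.23 log2 units and Rrm1 by 1.35 ± 0.17 log2 units, without overlap between the groups. Rrm2b, the subunit that p53 induces, rose from 12.5 ± 0.234 to 20.5 ± 2.81 CPM. Nolc1 and Bop1, nucleolar proteins of ribosome assembly, fell by 1.02 ± 0.27 log2 units and 1.22 ± 0.28 log2 units, while Polr1c, a subunit shared by RNA polymerases I and III, rose by 0.88 ± 0.10 log2 units. Myc was at 264, 243 and 235 CPM in CD3 and 256, 309 and 316 CPM in CD3_CD28. It was not called as deposited (0.24) and was called higher after either rescaling. Max, the partner of MYC, fell by 0.93 ± 0.10 log2 units, and Mxi1, an antagonist of MYC, rose by 1.36 ± 0.27 log2 units. Of the MYC, MAX and MXD genes, 1 of 10 tested members was called higher and 3 lower (median log2 fold change 0.01 as deposited, 0.21 after quantile normalization and 0.22 after a median of ratios). Without CD3_CD28 replicate 1, 3 were called higher. Mxd3, which is expressed in cycling cells, fell from 14.9 ± 1.01 to 4.45 ± 0.802 CPM.

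Of translation initiation factors, 5 of 25 tested members were called higher and 7 lower (5 and 2 in all 3 scalings, median log2 fold change -0.08 as deposited, 0.08 after quantile normalization and 0.12 after a median of ratios). Without CD3 replicate 1, 8 were called higher. Eif4a2, an RNA helicase, and Eif2s2, a subunit of the factor that carries initiator tRNA, rose by 0.74 ± 0.17 log2 units and 0.72 ± 0.08 log2 units, and the scaffold gene Eif4g1 fell by 0.71 ± 0.15 log2 units. Of polyamine genes, 2 of 11 tested members were called higher and 5 lower (2 and 3 in all 3 scalings, median log2 fold change -0.23 as deposited, -0.0011 after quantile normalization and -0.03 after a median of ratios). At 18.2% and 45.5% the polyamine list lay close to all tested genes (18.7% and 45.7%). Without CD3_CD28 replicate 1 or 2 or CD3 replicate 1 or 3 the number lower was 3. Smox, spermine oxidase, was at 24.2, 28.8 and 19.3 CPM in CD3 and 110.0, 112 and 98.2 CPM in CD3_CD28 and stood above every CD3 library in all CD3_CD28 libraries. Of genes of the TCA cycle and glutamine breakdown, 3 of 19 tested members were called higher and 9 lower (3 and 4 in all 3 scalings, median log2 fold change -0.29 as deposited, -0.13 after quantile normalization and -0.08 after a median of ratios). The shares, 15.8% and 47.4%, lay close to those of all tested genes (18.7% and 45.7%). Those called higher include Gls2, which reached the filter through the CD3_CD28 libraries alone. Gls2, a glutaminase, rose from 7.04 ± 0.819 to 28.8 ± 3.24 CPM and Got1, the cytosolic aspartate aminotransferase, from 95.6 ± 7.4 to 196 ± 21 CPM. Fh1, fumarate hydratase, and Sdhb, a subunit of succinate dehydrogenase, fell by 0.82 ± 0.12 log2 units and 0.71 ± 0.10 log2 units.

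Of cyclins, kinases and inhibitors, 5 of 17 tested members were called higher and 10 lower (median log2 fold change -0.77). Cdkn1a, which encodes the inhibitor p21, was at 16.7, 22.9 and 14.7 CPM in CD3 and 274, 248 and 269 CPM in CD3_CD28, a 14.6-fold difference (log2 fold change 3.81 ± 0.21, adjusted p = 3.61e-08). Ccnd3, cyclin D3, was at 101, 142 and 121 CPM in CD3 and 274, 338 and 336 CPM in CD3_CD28 (log2 fold change 1.38 ± 0.15, adjusted p = 5.15e-06), and Cdk6, its kinase partner, at 235, 189 and 211 CPM in CD3 and 485, 371 and 538 CPM in CD3_CD28 (log2 fold change 1.12 ± 0.17, adjusted p = 9.16e-05). Cdk2, the kinase of S phase, was at 80.8, 98 and 105 CPM in CD3 and 33.7, 31.9 and 38.7 CPM in CD3_CD28 and fell by 1.41 ± 0.13 log2 units. In each of the 4 genes the groups were separate. Mki67, a marker of cycling cells, was at 1637, 1629 and 1677 CPM in CD3 and 609, 1058 and 908 CPM in CD3_CD28 (log2 fold change -0.98 ± 0.26, adjusted p = 0.00675). Of the E2F and RB family, 1 of 12 tested members was called higher and 11 lower (1 and 7 in all 3 scalings, median log2 fold change -0.67). Among all tested genes 45.7% were called lower, and 29.6% in all 3 scalings. E2f7 and E2f8, repressor members, fell by 1.88 ± 0.24 log2 units and 1.55 ± 0.34 log2 units. Rb1, the retinoblastoma gene, was the one member that rose, by 0.78 ± 0.11 log2 units.

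Of 20 DNA repair and checkpoint genes, 19 were called lower in all 3 scalings (29.6% of all tested genes were, and the list had a median log2 fold change of -1.1). Fanca, a Fanconi anaemia core protein, was at 21.4, 27.4 and 33.1 CPM in CD3 and 1.03, 3.62 and 4.22 CPM in CD3_CD28 (log2 fold change -2.93 ± 0.33, adjusted p = 9.73e-06). Rad54l, a motor protein of homologous recombination, was at 49.4, 70.0 and 71.2 CPM in CD3 and 13.7, 20.7 and 20.6 CPM in CD3_CD28 and Brca2, which acts in the same pathway, at 74.2, 92.7 and 87 CPM in CD3 and 23.5, 34.1 and 33.6 CPM in CD3_CD28. Rad54l fell by 1.74 ± 0.21 log2 units and Brca2 by 1.46 ± 0.16 log2 units, with CD3_CD28 replicate 1 the lowest library of all 3 genes. Msh6, a mismatch repair gene, was the member not called, at 234, 247 and 247 CPM in CD3 and 181, 222 and 221 CPM in CD3_CD28.

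Of p53, the DNA damage response factor, and its targets, 12 of 19 tested members were called higher and 4 lower (median log2 fold change 1.04), against 18.7% and 45.7% of all tested genes. The 12 include Phlda3 and Perp, which reached the filter through the CD3_CD28 libraries alone. Trp53 itself was at 126, 138 and 138 CPM in CD3 and 61, 65.5 and 68.5 CPM in CD3_CD28 and fell by 1.03 ± 0.10 log2 units. Phlda3, a repressor of AKT, was at 5.0, 4.18 and 3.39 CPM in CD3 and 22.3, 20.1 and 28.6 CPM in CD3_CD28 (log2 fold change 2.24 ± 0.21), Plk2, a polo-like kinase, at 21, 17.5 and 15.3 CPM in CD3 and 73.1, 87.6 and 101 CPM in CD3_CD28 and Perp, a membrane protein of apoptosis, at 5.26, 4.52 and 4.56 CPM in CD3 and 17.2, 18 and 20.5 CPM in CD3_CD28. Plk2 rose by 2.22 ± 0.53 log2 units, and no library of one group reached the other. Perp rose by 1.76 ± 0.20 log2 units, but for Perp and Phlda3 the filter had set the separation in advance. Sesn1 and Trp53inp1, also known as p53 targets, fell by 1.95 ± 0.21 log2 units and 1.02 ± 0.14 log2 units.

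Of the BCL2 family, which sets survival and death, 5 of 14 tested members were called higher and 5 lower (median log2 fold change -0.19 as deposited, 0.09 after quantile normalization and 0.01 after a median of ratios). Bcl2l1, which encodes the survival protein BCL-XL, was at 29.7, 37.1 and 37.5 CPM in CD3 and 186, 232 and 205 CPM in CD3_CD28 (log2 fold change 2.54 ± 0.13, adjusted p = 1.44e-08), and Bcl2 at 102, 133 and 102 CPM in CD3 and 432, 417 and 475 CPM in CD3_CD28 (log2 fold change 1.98 ± 0.13, adjusted p = 9.41e-08). Bcl2l11, which encodes the death-promoting protein BIM, was at 236, 223 and 209 CPM in CD3 and 45.2, 57.5 and 47.5 CPM in CD3_CD28 and fell by 2.14 ± 0.15 log2 units. The groups were apart in all 3 genes, with CD3_CD28_ICOS at 309.6 ± 60.5 CPM for Bcl2l11 and 50.3 ± 8.59 CPM for Bcl2l1. Bbc3, which encodes the death-promoting protein PUMA, rose from 9.03 ± 0.401 to 24.8 ± 0.166 CPM, and Bcl2a1b and Bcl2a1d, survival genes with near-identical copies whose reads may be shared, fell by 0.99 ± 0.13 log2 units and 1.54 ± 0.16 log2 units.

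Of interferon-stimulated genes, 3 of 32 tested members were called higher and 21 lower (3 and 17 in all 3 scalings, median log2 fold change -0.99). Of all tested genes, 18.7% were called higher and 45.7% lower (18.5% and 29.6% in all 3 scalings). Gbp2, a guanylate-binding protein, was at 1337, 1857 and 1515 CPM in CD3 and 148, 194 and 189 CPM in CD3_CD28, an 8.85-fold lower mean in CD3_CD28 (log2 fold change -3.13 ± 0.14, adjusted p = 4.47e-09). Gbp7 was at 253, 324 and 319 CPM in CD3 and 27.1, 38.1 and 40.8 CPM in CD3_CD28 (log2 fold change -3.06 ± 0.13, adjusted p = 4.47e-09) and Irgm1, an immunity-related GTPase, at 246, 327 and 314 CPM in CD3 and 50.3, 65.2 and 66.2 CPM in CD3_CD28 (log2 fold change -2.27 ± 0.13, adjusted p = 4.62e-08). CD3 replicate 1 was the lowest CD3 library of these genes and still stood above every CD3_CD28 library. Gbp4 fell by 2.48 ± 0.18 log2 units, Gbp3 by 2.29 ± 0.13 log2 units and Iigp1 by 4.72 ± 0.20 log2 units, and reads may be shared among guanylate-binding protein genes of close sequence. A few members went the other way. Ifit1, a sensor of viral RNA caps, was at 4.12, 5.62 and 4.59 CPM in CD3 and 5.63, 10.9 and 8.08 CPM in CD3_CD28 and rose by 0.64 ± 0.19 log2 units, and Usp18, which removes ISG15, was at 12.6, 19.7 and 11.8 CPM in CD3 and 18.9, 25.7 and 21.1 CPM in CD3_CD28 and rose by 0.57 ± 0.17 log2 units. The groups overlapped for Usp18. For Ifit1 they all but touched, at 5.62 CPM in CD3 replicate 2 and 5.63 CPM in CD3_CD28 replicate 1. That gap is smaller than the estimated worth of 1 read in these libraries, 0.038 and 0.044 CPM.

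The interferon-stimulated response element, searched as 2 GAAA repeats with 2 bases of any kind between them on both strands, stood in 2.98% of all promoter windows and in 14 of 34 windows of the list, 41.2%. Of the 16 members called lower that have a RefSeq window, 7 held it, and both members called higher with a window, Ifit1 and Bst2, held it too. The call of Bst2 was lost without CD3_CD28 replicate 2 or 3 or CD3 replicate 1. The 100 bases before the start are shown for 4 GTPase genes that were lower and for Ifit1, which was higher, with matches in capitals. They lie at chr3:142620563-142620662 (plus strand), chr3:142530236-142530335 (plus strand), chr11:48871421-48871520 (minus strand), chr11:58199456-58199555 (plus strand) and chr19:34640789-34640888 (plus strand).
Gbp2: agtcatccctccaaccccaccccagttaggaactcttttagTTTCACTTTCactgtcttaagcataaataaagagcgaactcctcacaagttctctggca
Gbp7: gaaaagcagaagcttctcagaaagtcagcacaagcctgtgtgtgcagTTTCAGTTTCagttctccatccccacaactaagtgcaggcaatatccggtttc
Irgm1: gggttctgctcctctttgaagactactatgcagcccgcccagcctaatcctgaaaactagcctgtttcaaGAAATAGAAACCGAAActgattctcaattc
Igtp: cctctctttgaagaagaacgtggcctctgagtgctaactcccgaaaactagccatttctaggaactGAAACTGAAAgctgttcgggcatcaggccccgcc
Ifit1: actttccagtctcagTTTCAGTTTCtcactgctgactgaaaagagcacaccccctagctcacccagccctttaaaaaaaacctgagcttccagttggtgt
The first match began 59 bases before the start in Gbp2, 53 in Gbp7, 30 in Irgm1 and 34 in Igtp. In Ifit1 it began 85 bases before the start, so the motif stood in promoters of members that moved in either direction.

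Of genes of naive and quiescent T cells, 3 of 25 tested members were called higher and 14 lower (3 and 12 in all 3 scalings, median log2 fold change -0.42 as deposited, -0.46 after quantile normalization and -0.20 after a median of ratios). Ly6c1, a surface antigen, fell from 22.6 ± 2.46 to 6.89 ± 0.889 CPM, and Igfbp4, a binding protein of insulin-like growth factors, rose from 128 ± 11 to 306 ± 22.5 CPM. Satb1, a chromatin organiser, rose by 0.71 ± 0.10 log2 units. Of genes linked to anergy, 4 of 16 tested members were called higher and 8 lower (4 and 6 in all 3 scalings, median log2 fold change -0.19 as deposited, -0.05 after quantile normalization and 0.03 after a median of ratios). These were 25.0% and 50.0%, close to the 18.7% and 45.7% of all tested genes. Dgkz and Dgka, kinases that remove diacylglycerol, were at 569, 504 and 584 CPM in CD3 and 211, 247 and 239 CPM in CD3_CD28 and at 454, 427 and 459.8 CPM in CD3 and 239, 222 and 259 CPM in CD3_CD28 and fell by 1.25 ± 0.09 log2 units and 0.90 ± 0.12 log2 units. Nt5e, which encodes the ectoenzyme CD73, fell from 65.4 ± 15.2 to 23.3 ± 2.94 CPM, while the ubiquitin ligase gene Nedd4 rose from 66.9 ± 8.44 to 142 ± 23.1 CPM. Of 14 GIMAP and schlafen genes, linked to lymphocyte survival and quiescence, 12 were called lower (9 in all 3 scalings), against 45.7% (29.6%) of all tested genes. Gimap8 was at 178, 172 and 189 CPM in CD3 and 71.6, 64.8 and 74.8 CPM in CD3_CD28 and Slfn2 fell from 249 ± 25.1 to 116 ± 16.1 CPM.

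Of DNA methylation, TET and Polycomb genes, 4 of 17 tested members were called higher and 7 lower (4 and 3 in all 3 scalings, median log2 fold change -0.06 as deposited, 0.04 after quantile normalization and 0.15 after a median of ratios). At 23.5% and 41.2% this list lay close to all tested genes (18.7% and 45.7%). Dnmt1, the maintenance DNA methyltransferase, and Uhrf1, its partner at hemimethylated DNA, were at 634, 766 and 724 CPM in CD3 and 229.7, 309 and 334 CPM in CD3_CD28 and at 225, 276 and 263 CPM in CD3 and 81.6, 96.8 and 117 CPM in CD3_CD28. Dnmt1 fell by 1.29 ± 0.16 log2 units and Uhrf1 by 1.37 ± 0.23 log2 units. Kdm6b, a demethylase of histone H3 lysine 27, rose from 77.2 ± 13 to 187 ± 23.6 CPM and the dioxygenase gene Tet2 by 0.59 ± 0.16 log2 units. Of galectin, S100 and cytoskeletal genes, 5 of 16 tested members were called higher and 6 lower (5 and 3 in all 3 scalings, median log2 fold change -0.13 as deposited, -0.0086 after quantile normalization and 0.01 after a median of ratios). Only 3 were called higher without CD3_CD28 replicate 3 or CD3 replicate 2 or 3, and only 3 lower without CD3_CD28 replicate 1 or CD3 replicate 1 or 3. Vim, vimentin, was at 249, 232 and 234 CPM in CD3 and 1516, 954 and 1332 CPM in CD3_CD28 (log2 fold change 2.38 ± 0.20, adjusted p = 2.09e-06), and Lgals3, galectin-3, rose from 9.7 ± 1.51 to 32.2 ± 4.21 CPM. Of lysosome and autophagy genes, 5 of 22 tested members were called higher and 13 lower (5 and 7 in all 3 scalings, median log2 fold change -0.31 as deposited, -0.09 after quantile normalization and -0.10 after a median of ratios), and 3 were called higher without CD3_CD28 replicate 3 or CD3 replicate 2 or 3. Gabarapl1, which acts in autophagosomes, rose by 1.24 ± 0.19 log2 units. Tfeb, a regulator of lysosome genes, fell by 1.21 ± 0.13 log2 units.

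**Figure D5:**
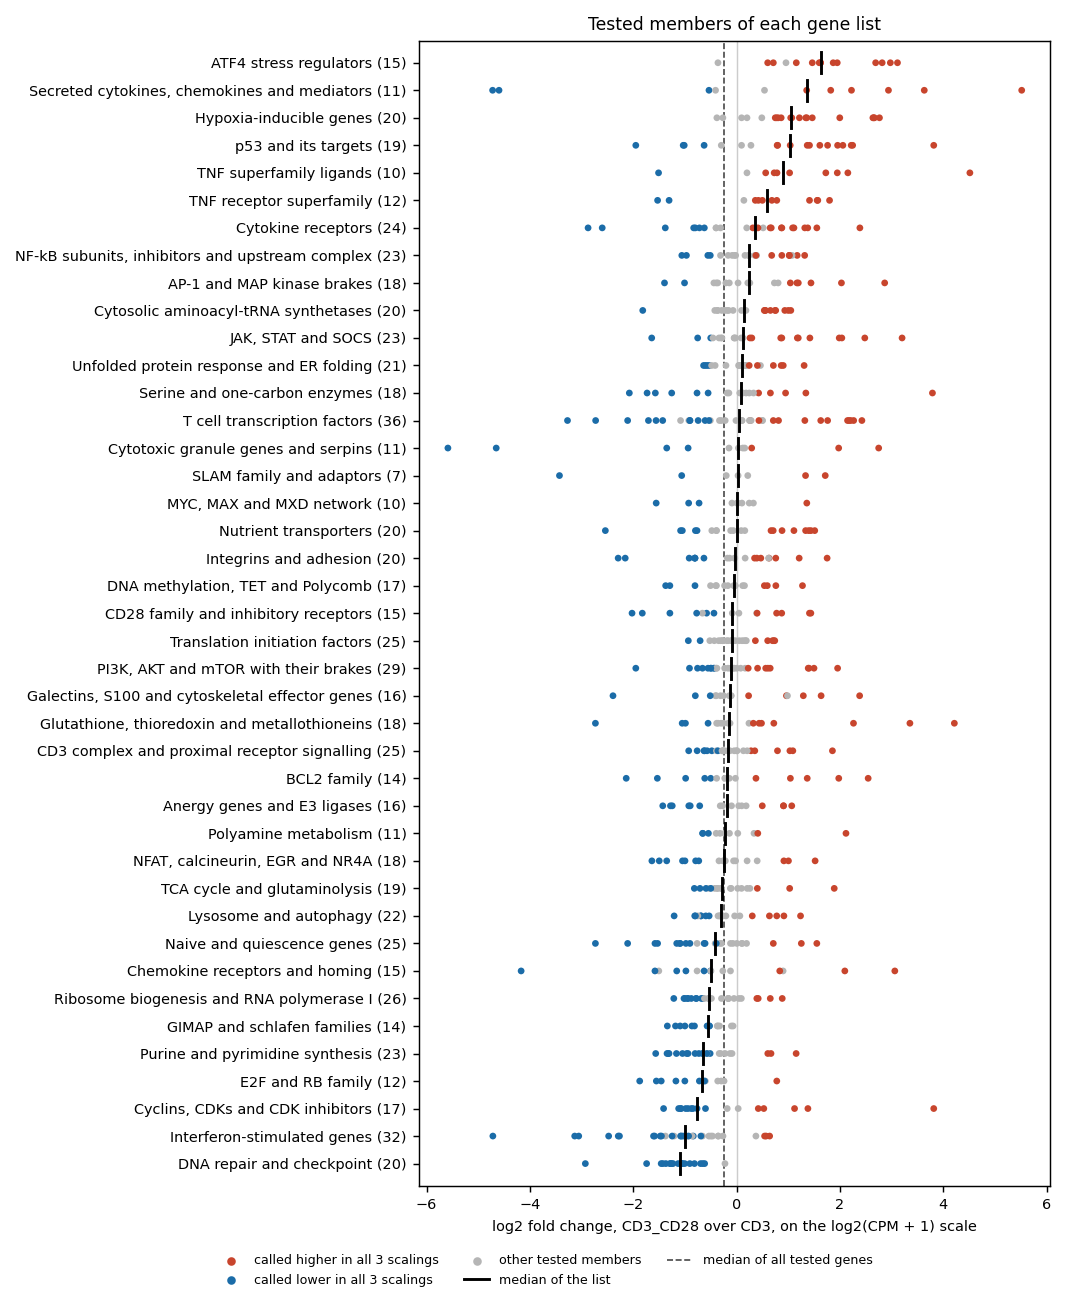
Log2 fold change of CD3_CD28 over CD3 (horizontal axis) of every tested member of 41 pathway lists (rows, with the number tested), coloured by whether the call held in all 3 scalings, with list medians as bars and the median of all tested genes as a dashed line at -0.24. The ATF4, secreted, hypoxia and p53 lists lie farthest to the right, and the interferon and DNA repair lists farthest to the left.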

How the data were processed

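RNA sequencing libraries of mouse CD4+ T cells, 3 in each of 4 groups, were compared. The authors deposited CPM, read counts per gene scaled to 1000000 assigned reads. Each deposited value carries an offset of 0.0001 CPM, which was removed, and per the submitters' processing notes Partek 10, DESeq2 and mm10 were used. The authors also deposited a table of their own comparison with log2 ratios, p-values and false discovery rates. No aligner, counter, annotation or strand setting is given in the sources used here, so reads of overlapping or near-identical genes may be shared. Of values from 0.02 to 1.2 CPM, 76.5% to 81.4% in each library lay within 0.02 of a whole number of reads, which is most but not nearly all, so no count test was run and depths are estimates from the smallest steps between low values.

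Genes with at least 10 CPM in at least 3 libraries were tested with limma 3.58.1 in R 4.3.3 (trend and robust estimation, tested on simulated data) on log2(CPM + 1), with all 12 libraries in the fit, the contrast CD3_CD28 minus CD3, 2-sided p-values and Benjamini-Hochberg adjustment at 0.05. Fold changes on this scale understate the change of genes at low CPM. Values are mean ± SD over 3 libraries, and log2 fold changes carry their standard error. Alternatives covered scaling, filter, pseudocount, model and single libraries left out.

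The comparison and gene lists were chosen with earlier results of these data known. The named genes were drawn from the 15 largest rises and 15 largest falls among called genes with separate groups and a higher-group mean no lower than the median over genes (leaving out predicted, clone-named, antigen receptor, ribosomal pseudogene and histone cluster genes), up to 5 of each direction per list, members of lists with at most 12 tested genes, and genes central to the design. This rule gave more genes than are printed, and some items it gave are not reported here. Outside that rule, 25 genes were chosen after their values were seen: Asns, Atf4, Ccr7, Cd247, Dusp4, Egr3, Eif2ak3, Gata3, H2-Ab1, Id2, Igtp, Il6st, Irgm1, Lag3, Malt1, Msh6, Perp, Slc30a1, Slc39a6, Stat5a, Tbx21, Tigit, Tsc1, Tsc2 and Vsir. Gene coordinates are from GENCODE, and promoter sequences and their starts from RefSeq.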

Additional observations from a re-analysis of the deposited data

How the results depend on the processing

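Rescaling moved 2 of the 4 counts by over 1.5 times. Genes called higher numbered 2882 after quantile normalization and 2909 after a median of ratios, against 1837 as deposited. Genes lower by at least 1 log2 unit numbered 618 and 612, against 979. Genes higher by at least 1 log2 unit numbered 474 as deposited, 706 and 665 after the rescalings and 711 with a filter of 1 CPM. Leaving out single libraries gave 1537 to 1874 genes higher and 3799 to 4394 lower, and 435 to 491 higher and 819 to 1168 lower by at least 1 log2 unit. The labels do not say whether replicate numbers pair the libraries, and the main fit did not pair them. Correlations of same-numbered deviations were low, at 0.11, 0.21 and 0.06. Each library correlated best with its own number, a hint of pairing from the data. With the replicate number as a block, 1835 genes were higher and 4427 lower, and the counts at 1 log2 unit or more were 471 and 979. The other alternatives moved none of the 4 counts by over 1.5 times, with 1928 higher and 4606 lower in the fit of the 6 libraries alone and 2163 and 4204 without the ribosomal RNA gene. Of 451 named genes, 51 lost their call under at least 1 alternative and 16 gained one. Cd200r1, lower as deposited (log2 fold change -0.66), reversed to 0.28 after quantile normalization, where it was not called. The cause was not tested. Depth limits the lowest values: 1 read was worth 0.0879 CPM in CD3 replicate 1, the shallowest library.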
